A study of Mus musculus with 5 samples.

Results

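Regulators of G protein signalling (RGS) are proteins that speed up GTP hydrolysis by the alpha subunits of heterotrimeric G proteins and so shorten the signal that a chemokine receptor sends. The genes *Rgs1*, *Rgs2*, *Rgs3*, *Rgs10*, *Rgs14*, *Rgs16*, *Rgs18* and *Rgs19*, were examined in CD4+ T cells of the inflamed mouse colon. They were picked by symbol, as regulators of the receptors through which T cells move, and make up 8 of 18193 measured genes. All 18 of their probe sets, of 34945 that carry 1 gene symbol, are reported. The brightest probe set of a gene, by its mean over the 5 arrays, is called the main one.

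The RNA was hybridised to Affymetrix GeneChip arrays of the mouse genome. CXCR6+ cells (labelled CXCR6 Hi, n = 2 arrays) and CXCR6- cells (labelled CXCR6 Lo, n = 2 arrays) were CD3+CD4+ T cells sorted from the colonic lamina propria (LP) of *Rag1*-/- mice with colitis. The colitis followed transfer of CD45RBhigh CD4+ T cells from healthy BALB/c mice, and CXCR6, the receptor of the chemokine CXCL16, was detected with a CXCL16-Fc fusion protein. The fifth array held the naive comparison, CD3+CD4+ CD45RBhigh T cells (n = 1 array) from the spleen of healthy mice. The labels give BALB/c as the strain of all 5 samples, and mice were 8 to 12 weeks old when they entered experiments. Ages at sorting are not stated. The time from transfer to sorting is given as 6 weeks in one place and 8 weeks in another. *Rag1*-/- hosts have no T or B cells of their own, so the LP T cells descend from the transferred ones but had expanded in a lymphopenic host. One label of the naive sample names the spleen and another the LP, and the methods name the spleen. How many mice gave each sample is not stated, and the labels call the 2 arrays of each LP group biological replicates without saying whether they came from separate mice, so a p-value here reflects only how far arrays of 1 group differ.

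A chemokine receptor acts mainly through Gi proteins, whose alpha subunit binds GTP when the receptor is engaged and is switched off when the GTP is hydrolysed. RGS proteins bind the active alpha subunit through a shared domain, and most of those studied here act on the Gi and Gq classes. In lymphocytes they are known to set how strongly and how long a cell answers a chemokine, and several are themselves induced or lost when T cells are activated.

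Signals are linear intensities scaled so that the median of each array is 1, and differences are in log2 units. The gene *Cxcr6* itself read 184 and 225 in CXCR6+ cells, 58.1 and 25.3 in CXCR6- cells and 10.5 in naive cells, which follows the sort. The T cell markers *Cd3e*, *Cd3d*, *Cd3g* and *Cd4* were between 22.9 and 167 on every array. Of 5 measured T cell genes, however, 2 were called lower in LP cells and 0 higher, beside 18.8% and 15.1% of all genes. *Cd3e* read 23.2 to 25.1 in LP cells against 86.1 (-1.83, limma adjusted p = 0.0176) and *Cd3d* 45.4 to 68.5 against 125 (-1.13, limma adjusted p = 0.0396), and the part of this in the RGS values was not tested. Of 3 measured naive T cell genes, 1 was called lower in LP cells and 1 higher, beside the same shares of all genes. Their summed signal was 335 to 393 on the LP arrays against 277 on the naive array. The naive array stood apart from the LP arrays in measures of RNA and labelling as well as in genes. Its ratio of 3′ to 5′ *Gapdh* signal was 1.51 against 2.81 to 6.96, its Dap spike-in control read 0.194 against 64.6 to 102, and its upper quartile was 7.54 against 4.73 to 5.39. Tissue, host, digestion of the colon and array handling all lie with the groups and cannot be told apart in any comparison with naive cells. In bulk samples, fewer cells of a type and less RNA per cell cannot be told apart either.

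Both LP subsets together differed from naive T cells in most of the 8 genes, in both directions. *Rgs1*, *Rgs2* and *Rgs16* were between 7.71-fold and 9.61-fold higher in LP cells and *Rgs3* was 2.10-fold higher, while *Rgs18* was 28.2-fold lower and *Rgs19* was 5.11-fold lower. By limma's moderated test with Benjamini-Hochberg adjustment over all genes (threshold 0.05), 4 of the 8 were called higher, beside 15.1% of all genes, and 2 lower, beside 18.8% of all genes. *Rgs10* and *Rgs14* read lower on all 4 LP arrays but were not called. All 8 were at an unadjusted p under 0.05, as were 48.4% of all genes. The 4 LP arrays lay above the naive array in 4 members and below it in the other 4, where 35% and 40.9% of all genes did so. The median absolute difference was 2.65 over the members and 1.18 over all genes, and 6 of the 8 members exceeded the latter, whereas the medians with sign were 0.08 and -0.14. With quantile normalization the median over all genes moved from -0.14 to 0.08, and the split of all calls from 2756 higher and 3414 lower to 3030 higher and 2173 lower.

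These calls rest on few arrays. Without either CXCR6- array no gene of the 18193 was called by limma (7530 or 7545 at an unadjusted p under 0.05), and so none of the members. Without CXCR6+ replicate 1, *Rgs1* and *Rgs18* were called, and without CXCR6+ replicate 2, *Rgs1*, *Rgs18* and *Rgs19*. The signs of the 8 differences from naive held with any 1 LP array left out.

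**Figure D1:**
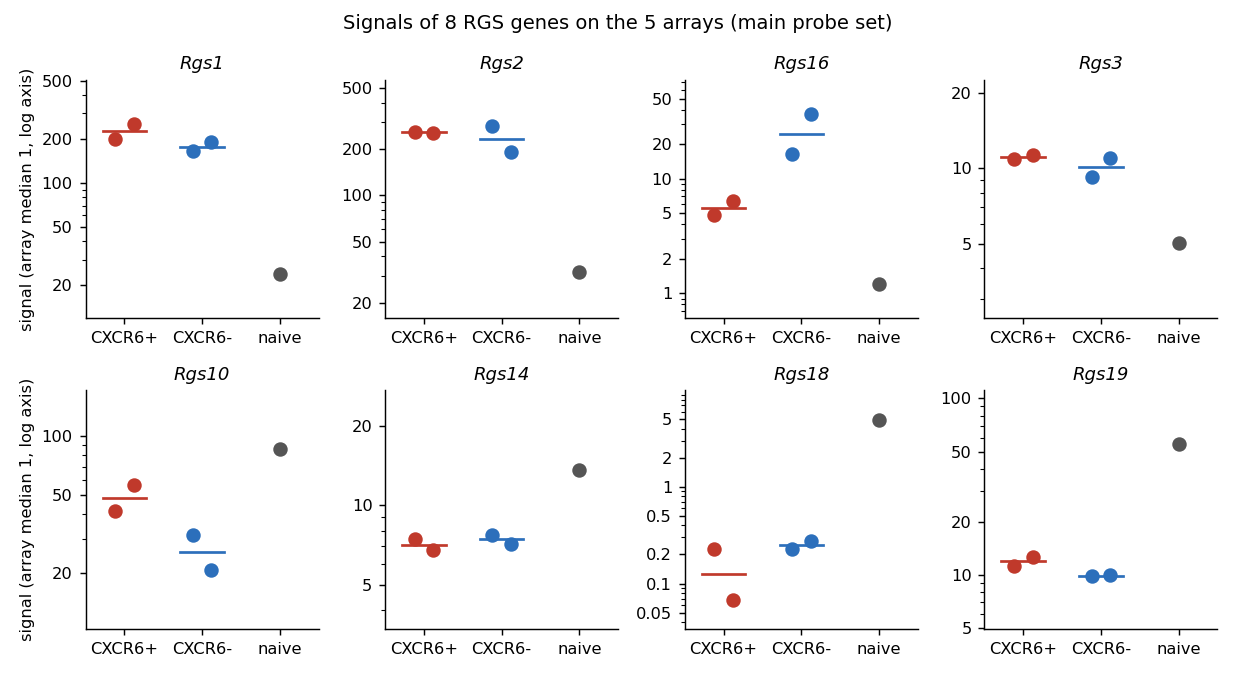
Signal of the main probe set of each RGS gene on the 5 arrays, on a log axis whose range differs between panels (red, CXCR6+; blue, CXCR6-; grey, naive; lines, geometric means of 2 arrays). The 4 LP arrays lie on 1 side of the naive array in all 8 panels, and the CXCR6+ and CXCR6- points do not overlap for *Rgs1*, *Rgs16*, *Rgs10* and *Rgs19*.

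*Rgs1*, *Rgs2*, *Rgs3*, *Rgs16* and *Rgs18* belong to the R4 subfamily, most of whose proteins are short and hold little more than the RGS domain. *Rgs1*, known in B and T cells for blunting the response to chemokines, read 200 and 254 in CXCR6+ cells, 166 and 190 in CXCR6- cells and 23.9 in naive cells. The order was naive, CXCR6- and CXCR6+, with a wide gap after naive and a narrow one between the subsets. The LP cells exceeded naive cells by 3.07 (SE 0.29, limma adjusted p = 0.013), an 8.38-fold difference with a 95% interval of 2.25 to 3.89 in log2 units. It was between 2.98 and 3.15 with any single LP array left out.

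*Rgs2* differs from its relatives in preferring Gq over Gi, and in many cells it is induced within a short time of a stimulus, through cAMP among other signals. Its signals were 258 and 256 in CXCR6+ cells, 283 and 190 in CXCR6- cells and 31.7 in naive cells. The LP arrays were all high, and the CXCR6+ values lay inside the range of the CXCR6- values. The difference from naive was 2.95 (SE 0.33, limma adjusted p = 0.0153), or 7.71-fold. Without any single LP array it was 2.80 to 3.09 with adjusted p between 0.0509 and 0.0534, so this call needs all 4 arrays.

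*Rgs2* is also the clearest case for looking at more than 1 probe set, since it has 4. The probe set 1447830_s_at read 195 and 163, then 194 and 106, against 19.3 on the naive array, and 1419247_at read 80.4 and 61.6, then 72.2 and 43.6, against 13.2. Both were higher in LP cells in the fit on all probe sets, by 3.05 (limma adjusted p = 0.0238) and 2.25 (limma adjusted p = 0.0341). The fourth, 1443250_at, was dim, with 0.186 on CXCR6- replicate 2 beside 0.208 in naive cells, while the other LP arrays read 1.67 to 2.32, and it was not called. The 3 bright probe sets thus gave the same direction, and CXCR6- replicate 2 was the lowest LP array in all 4. With all 4 averaged the difference was 2.66 and the call was lost (limma adjusted p = 0.0526).

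The promoter of *Rgs2* is shown because *Rgs2* is a textbook target of cAMP signalling. It is the stretch of 250 bases before the start of the RefSeq transcript on the minus strand (GRCm38.p6, chr1:144004150-144004399), with capitals for matches on either strand to TGACG, the half-site of the cAMP response element, TGANTCA, the AP-1 site, GGAAA, the NFAT core, and CACCC, the core bound by KLF factors.

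*Rgs2*: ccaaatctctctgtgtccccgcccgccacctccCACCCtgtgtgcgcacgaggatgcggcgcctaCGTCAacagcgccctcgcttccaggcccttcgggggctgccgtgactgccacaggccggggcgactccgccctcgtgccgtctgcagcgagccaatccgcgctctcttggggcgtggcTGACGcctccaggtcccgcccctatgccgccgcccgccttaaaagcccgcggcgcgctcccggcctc

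It holds 2 half-sites of the cAMP response element, on opposite strands, and 1 CACCC match, with no AP-1 or NFAT match. A half-site occurs in 17.8% of 32851 promoter windows of this length in the mouse, CACCC in 52.0%, GGAAA in 55.6% and TGANTCA in 6.7%. A match describes the letters only and is no evidence that a factor binds.

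*Rgs16*, which acts on Gi and Gq and is induced on activation of T cells, had the largest rise among the main values of the 8 and the largest difference between the subsets. It read 4.80 and 6.40 in CXCR6+ cells, 16.4 and 36.5 in CXCR6- cells and 1.21 in naive cells. Here the order was naive, CXCR6+ and CXCR6-, with no overlap between any of the groups, although the CXCR6- arrays themselves differed by more than the CXCR6+ arrays did. LP cells as a whole were 3.26 higher than naive cells (SE 0.56, limma adjusted p = 0.026). Leaving out 1 LP array at a time gave 2.98 to 3.55 with adjusted p from 0.0509 to 0.0747. The naive signal lies near the array median, and with 1 added to every signal the difference was 2.55. The call was lost with a floor of 1 (limma adjusted p = 0.0804), and the methods' 2-group test gave an unadjusted p of 0.117.

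The other probe sets of *Rgs16* were dim and did not carry the same rise. The probe set 1426037_a_at read 0.689 and 1.37 in CXCR6+ cells and 1.94 and 4.22 in CXCR6- cells against 0.689 in naive cells (difference 1.27, limma adjusted p = 0.225). It again had both CXCR6- arrays above both CXCR6+ arrays. By contrast 1451452_a_at stayed below its naive signal of 0.820 on all LP arrays, at 0.109 to 0.708, and was not called (-2.08, limma adjusted p = 0.219). With the mean of the 3 probe sets in place of the brightest, the *Rgs16* difference was 0.82 and the call was lost (limma adjusted p = 0.257).

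The promoter of *Rgs16* (RefSeq, GRCm38.p6, plus strand, chr1:153740103-153740352) is shown with the same capitals, since *Rgs16* and *Rgs2* were both high in LP cells and lie on the same chromosome.

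*Rgs16*: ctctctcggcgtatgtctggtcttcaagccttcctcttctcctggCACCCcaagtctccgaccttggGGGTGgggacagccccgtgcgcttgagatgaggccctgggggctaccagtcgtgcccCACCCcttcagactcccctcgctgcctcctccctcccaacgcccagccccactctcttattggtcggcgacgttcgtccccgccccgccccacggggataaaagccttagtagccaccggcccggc

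It holds 3 matches to the KLF core and none to the other 3 motifs, so the 2 promoters share only CACCC among these letters.

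*Rgs3*, which exists as several transcripts that code for proteins of different length, read 10.9 and 11.3 in CXCR6+ cells, 9.27 and 11.0 in CXCR6- cells and 5.05 in naive cells. The LP arrays were all above naive and the subsets overlapped. Its difference of 1.07 (SE 0.26) only just passed (limma adjusted p = 0.0495), and in the fit on all probe sets the same probe set did not (limma adjusted p = 0.0607). The 4 probe sets of *Rgs3* disagreed in direction. On 1449516_a_at LP cells read 6.43 to 12.04 against 6.52 (0.36, limma adjusted p = 0.425), whereas on the dim 1454026_a_at and 1425701_a_at they read 0.623 to 1.60 against 2.37 and 0.176 to 0.996 against 1.65, below naive on every array. Which transcripts each probe set reports was not examined here. The mean of the 4 probe sets differed by -0.31, the opposite sign to the main one.

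*Rgs18*, the R4 member known from platelets and megakaryocytes, was low in LP cells, unlike the main probe sets of the other 4 R4 genes described here. It read 0.229 and 0.068 in CXCR6+ cells and 0.226 and 0.273 in CXCR6- cells, all below the array median, against 4.97 in naive cells. The LP difference was -4.82 (SE 0.77, limma adjusted p = 0.0236), or 28.2-fold lower. The second probe set, 1449856_at, read 0.254 to 0.478 in LP cells against 3.80 in naive cells and was 10.4-fold lower (-3.38, limma adjusted p = 0.0225). At signals this far below the array median the fold is poorly fixed. With 1 added to every signal the main probe set differed by -2.32. The difference ranged from -5.26 to -4.38 with 1 LP array left out, and the call was lost without either CXCR6- array and in the methods' 2-group test after adjustment.

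Several B cell genes and some platelet genes were lower in LP cells too, and their part in the *Rgs18* result was not tested. Of 7 measured platelet genes, 2 were lower in LP cells, 0 were higher and 5 did not pass, with a median difference of -0.30 (18.8% of all genes were called lower), and their summed signal was 17.5 to 24.2 on the LP arrays against 32.7 on the naive array. *Ppbp* read 5.55 and *Gp9* 1.18 in naive cells against 0.324 to 0.991 and 0.069 to 0.133 in LP cells, whereas *Itga2b*, *Treml1* and *Gp5* differed by 0.84, 1.09 and 0.29 without passing. Of 7 measured B cell genes, 4 were lower and 1 higher, beside 18.8% and 15.1% of all genes. Their sums were 4.65 to 5.68 against 55.1, most of it from *Cd79b* (22.0 on the naive array) and *Ms4a1* (16.2). No marker was listed at 0 on any array.

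*Rgs10* and *Rgs14* form the R12 subfamily here, and both read lower in LP cells without being called. *Rgs10*, a small RGS protein abundant in resting immune cells, read 41.5 and 56.3 in CXCR6+ cells, 31.4 and 20.8 in CXCR6- cells and 85.8 in naive cells. The order was thus naive, CXCR6+ and CXCR6-, with every LP array below naive and no overlap between the subsets. The difference from naive was -1.29 (SE 0.38, limma adjusted p = 0.0764). It was called under 3 of 15 alternatives. These were a filter that kept genes above the 40th percentile (limma adjusted p = 0.0178), log2 of the signal plus 1 (0.0149) and a variance trend with robust fitting (0.00641). Over all genes these 3 also gave more lower calls than the main fit, with 4421 of 10916, then 5086 and 4757 of 18193, against 3414. The methods' 2-group test gave an unadjusted p of 0.156.

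*Rgs14*, which besides its RGS domain holds a motif that binds the inactive Gi alpha subunit, was the most even of the 8 among the LP arrays. It read 7.43 and 6.79 in CXCR6+ cells and 7.74 and 7.16 in CXCR6- cells against 13.7 in naive cells. The LP signal was 1.88-fold lower (-0.91, SE 0.24, limma adjusted p = 0.062). The size depended on the scaling of the arrays, since quantile normalization brought it to -0.19 (limma adjusted p = 0.573). Of 14 alternatives, 6 called *Rgs14* lower.

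*Rgs19*, a member of the RZ subfamily that acts on the Gi class, was low in LP cells under each alternative. It read 11.3 and 12.6 in CXCR6+ cells, 9.87 and 9.91 in CXCR6- cells and 55.5 in naive cells. All LP arrays were low and close together, and the CXCR6+ pair lay just above the CXCR6- pair. The difference was -2.35 (SE 0.24, limma adjusted p = 0.0143), a 5.11-fold fall, and lay between -2.39 and -2.02 in all 14 alternatives. The main probe set is of the _x_at type, whose probes can match other sequences too. The second, 1417786_a_at, gave the same picture with 11.0 and 14.6, then 12.6 and 12.1, against 40.8 on the naive array (-1.71, limma adjusted p = 0.0314), so the fall does not rest on the _x_at probes.

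The promoter of the most upstream *Rgs19* start in RefSeq is printed with the same capitals to set a gene that fell beside the 2 that rose (GRCm38.p6, minus strand, chr2:181693978-181694227).

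*Rgs19*: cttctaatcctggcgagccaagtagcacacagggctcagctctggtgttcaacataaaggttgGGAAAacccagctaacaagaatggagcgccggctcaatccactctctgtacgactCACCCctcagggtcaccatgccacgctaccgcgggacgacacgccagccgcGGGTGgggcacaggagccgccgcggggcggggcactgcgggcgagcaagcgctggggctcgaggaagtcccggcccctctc

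It holds 1 NFAT core and 2 KLF cores and no half-site of the cAMP response element or AP-1 site. RefSeq windows were at hand for 5 of the 8 genes, 8 starts in all, and among them only that of *Rgs2* held a TGACG half-site, none held an AP-1 site and each held at least 1 CACCC. The GC content was 72.4% for *Rgs2*, 66.4% for *Rgs16*, 76.4% for *Rgs10*, 54.4% to 74.8% for the *Rgs19* starts and 48.4% and 56.8% for the *Rgs3* starts, where the median of all windows was 52.4%, so genes that rose and genes that were low in LP cells had windows above it.

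**Figure D2:**
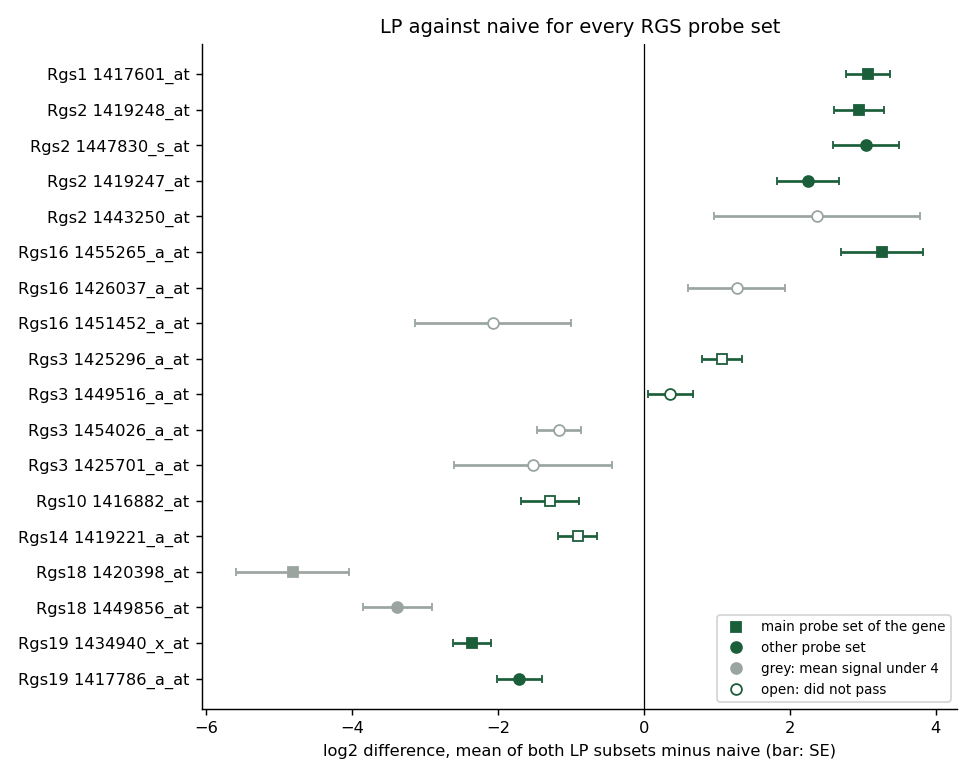
Difference between LP and naive cells for each of the 18 RGS probe sets in the fit on all probe sets (log2 units, mean of both subsets minus naive; bars, SE; filled, limma adjusted p under 0.05; grey, mean signal under 4). The probe sets of *Rgs18* and *Rgs19* lie on 1 side of 0, as do those of *Rgs2*, while those of *Rgs3* and *Rgs16* fall on both sides.

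Over all 18 probe sets, 5 were called higher and 4 lower in LP cells, beside 13.1% and 16.5% of all probe sets. All 4 LP arrays were above naive for 6 and below for 9, and for 3 neither held. Of all genes, 35% had the 4 LP arrays above naive and 40.9% below, and the share over all probe sets was not computed. The 5 called higher belong to *Rgs1*, *Rgs2* and *Rgs16*, and the 4 called lower to *Rgs18* and *Rgs19*.

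The comparison of CXCR6+ with CXCR6- cells gave no call among the 8 members, and limma called none of the 18193 genes (0%). At an unadjusted p under 0.05 there was 1 member, *Rgs16*, beside 6.55% of all genes. *Rgs16* was 4.42-fold higher in CXCR6- than in CXCR6+ cells, a difference of -2.14 (SE 0.50, 95% interval -3.58 to -0.71, limma adjusted p = 0.655). The sign of this gene value held in every alternative run, from -2.72 to -0.82. Of its other probe sets, 1426037_a_at ran the same way, and the dim 1451452_a_at, at 0.708 and 0.126 against 0.109 and 0.147, ran the other way with overlap (1.24, SE 0.96). The 2-group test named in the methods gave an unadjusted p of 0.0727 for *Rgs16* and called 0 members.

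*Rgs10* ran the other way and was 1.89-fold higher in CXCR6+ cells (0.92, SE 0.34, 95% interval -0.07 to 1.91, limma adjusted p = 0.761). *Rgs1* and *Rgs19* also had both CXCR6+ arrays above both CXCR6- arrays, by 0.34 and 0.27, with intervals of -0.39 to 1.08 and -0.36 to 0.89 that include 0. Over all genes, 25.1% had the CXCR6+ arrays on top in this way, as 3 members did, and 14.3% had them below, as *Rgs16* did. The subsets overlapped for *Rgs2*, *Rgs3*, *Rgs14* and *Rgs18*. Of these *Rgs14* was the most tightly bounded, with an interval of -0.70 to 0.56, and *Rgs18* the least, with -2.97 to 0.98. Intervals of this width leave room for differences of either sign, so the members cannot be called alike in the 2 subsets.

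**Figure D3:**
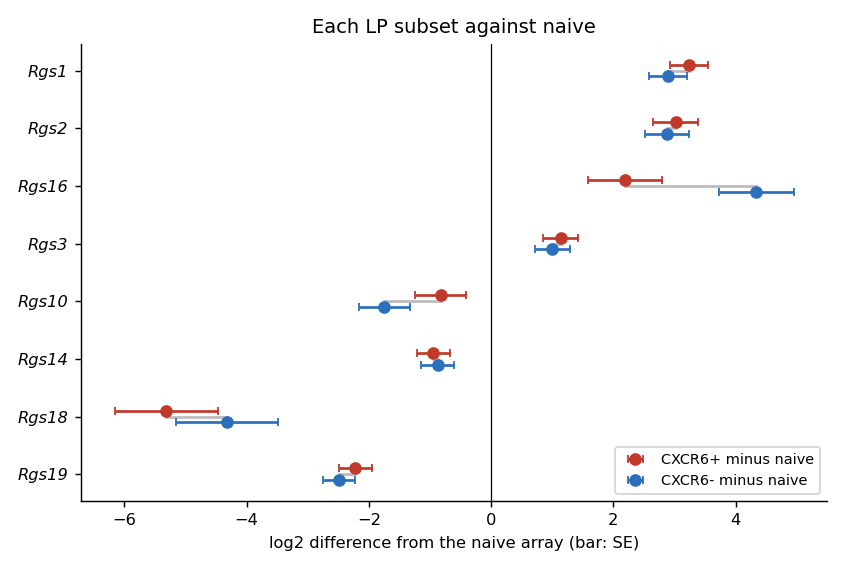
Difference of each LP subset from the same naive array for the 8 RGS genes (log2 units; red, CXCR6+; blue, CXCR6-; bars, SE from the fit; grey line, gap between the subsets). The subsets lie far apart for *Rgs16*, at 2.19 and 4.34, less so for *Rgs18*, at -5.31 and -4.32, and *Rgs10*, at -0.83 and -1.75, and close together for *Rgs2*, *Rgs3* and *Rgs14*.

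Set against the naive array one at a time, both subsets showed high *Rgs1* and *Rgs2* and low *Rgs18* and *Rgs19*. These 2 comparisons share the naive array, so their values are given side by side. In CXCR6+ cells 2 members were called higher, beside 13.2% of all genes, and 2 lower, beside 15.3%. In CXCR6- cells 3 were called higher, beside 12.8%, and 2 lower, beside 16.7%. *Rgs1* differed by 3.24 in CXCR6+ and 2.89 in CXCR6- cells (limma adjusted p = 0.0167 and 0.0181), and *Rgs2* by 3.02 and 2.87 (0.0203 and 0.0211). *Rgs18* differed by -5.31 and -4.32 (0.0275 and 0.0369), and *Rgs19* by -2.22 and -2.49 (0.0203 and 0.018).

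*Rgs16* was the gene called in CXCR6- cells but not in CXCR6+ cells. Its signal was 20.2-fold above naive in CXCR6- cells (4.34, limma adjusted p = 0.023) and 4.57-fold above it in CXCR6+ cells (2.19, adjusted 0.0725). The gap between these 2 values is the subset difference given above, which did not pass adjustment. *Rgs10* was 3.36-fold below naive in CXCR6- cells (-1.75, limma adjusted p = 0.0541) and 1.77-fold below it in CXCR6+ cells (-0.83, adjusted 0.215). All calls in these 2 comparisons were lost when any single LP array was left out.

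Like *Rgs1*, *Rgs2* and *Rgs16*, most listed genes known to respond to tissue dissociation were higher in LP than in naive cells. The part of these dissociation genes in the RGS results was not tested. The colon was digested with enzymes at warm temperature and the spleen was not. Of 13 immediate early and heat shock genes, 9 were higher in LP cells and 0 lower, where 15.1% and 18.8% of all genes were called so. Their summed signal was 915 to 1484 on the LP arrays against 357 on the naive array. *Fos* read 158 to 199 against 57.2, *Dusp1* 119 to 170 against 30.5, and *Hspa1a* 71.3 to 276 against 2.31. The other 4 did not pass, and of these *Egr1* read 19.5 to 32.4 against 66.1 (-1.35, limma adjusted p = 0.0626) and *Zfp36* differed by -0.50. Within the LP arrays the sum was highest on replicate 1 of each subset (1346 and 1484), as was *Rgs2*, whereas *Rgs1* and *Rgs16* were higher on replicate 2 of each. Genes that mark other colon cells gave mixed values. Of 8 myeloid genes 3 were higher and 2 lower, with sums of 269 to 341 in LP cells against 246, of 5 mast cell genes 1 was higher and 3 lower, with *Kit* the higher one (18.9 to 57.6 against 4.69) and the other 4 below naive on every LP array, and of 6 epithelial genes 2 were higher and 0 lower, with sums of 23.2 to 53.6 against 10.5. Their part in the RGS values was not tested.

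Of the 8 genes, 4 lie on chromosome 1, and 3 of these are close neighbours. In the order of protein-coding genes in RefSeq, *Uchl5* is followed by *Rgs2*, *Rgs13*, *Rgs1*, *Rgs21*, *Rgs18* and *Brinp3*. Along this run *Rgs2* and *Rgs1* were high in LP cells and *Rgs18* low, while *Rgs13*, at 0.009 to 0.076 on every array, was far below the array median throughout. *Rgs21* was not analysed here. The genes on the flanks were not called, with *Uchl5* at 20.6 to 25.8 in LP cells against 33.6 (-0.57, limma adjusted p = 0.179) and *Brinp3* at 0.139 or less on all arrays. *Rgs16* lies elsewhere on the chromosome beside *Rgs8*, which stayed between 0.189 and 0.452 (-0.12, limma adjusted p = 0.869).

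For each member the 2 genes with the most similar pattern were sought among 10480 named genes at or above the array median, by the root mean square difference of log2 signals centred on each gene's mean. This is a description over 5 arrays and is dominated by the contrast with the naive array. Closest to *Rgs1* were *Nek6* (0.07) and *Ifngr1* (0.08), the latter coding for a chain of the interferon gamma receptor, which read 93.6 to 141 in LP cells and 12.4 in naive cells. *Rgs16* had no close match. Its nearest gene was *Gzmk* (0.43), which codes for the protease granzyme K and read 31.5 and 54.2 in CXCR6+ cells, 90.6 and 133 in CXCR6- cells and 5.196 in naive cells. It thus has the same order of groups as *Rgs16*. The next was *Stox2* (0.46). *Podn* and *Entpd2* were nearest to *Rgs2* (0.10 and 0.11), *Ppm1d* and *Snrnp40* to *Rgs3* (both 0.03), *Atp6v1g2* and *Sugt1* to *Rgs10* (both 0.13), *Ip6k1* and *Chek1* to *Rgs14* (both 0.05), *Ltbp1* and *Nt5dc2* to *Rgs18* (0.24 and 0.27), and *Rb1cc1* and *Inafm1* to *Rgs19* (both 0.03).

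The remaining genes of the RGS family gave 4 calls higher and 1 lower among 15 measured, beside 15.1% and 18.8% of all genes. Those called higher read at most 6.02 on any array. *Rgs5*, known from pericytes, rose from 0.276 in naive cells to between 3.90 and 6.02 in LP cells (4.19, limma adjusted p = 0.0121). *Rgs4* read 0.529 to 1.31 against 0.064 (3.55, limma adjusted p = 0.015), while *Rgs9* and *Rgs20* rose by 1.43 and 1.31 (0.0444 and 0.0339). *Axin2*, which carries an RGS-like domain and acts in Wnt signalling, was lower (-1.56, limma adjusted p = 0.0498). Its call was lost with quantile normalization (-0.95, limma adjusted p = 0.16) and with its probe sets averaged (-1.59, limma adjusted p = 0.131). Averaging also ended the calls on *Rgs20* (0.089, limma adjusted p = 0.928) and *Rgs4* (2.52, limma adjusted p = 0.0662). With a floor of 1 *Rgs4* differed by 0.099 and was not called. *Rgs9* (0.90, limma adjusted p = 0.165) and *Rgs20* (0.42, limma adjusted p = 0.183) were not called there either, while *Rgs5* was (2.33, limma adjusted p = 0.0449). *Rgs7bp* at 1.58 and *Rgs13* at -1.10 did not pass. Beside *Rgs5*, 3 of the 6 genes of pericytes and fibroblasts were higher, *Rgs5* itself included, with summed signals of 73.5 to 128 on the LP arrays against 7.82. *Dcn* read 41.5 to 86.4 against 2.19 and *Col3a1* 24.0 to 36.1 against 2.32, while *Pdgfrb* and *Cspg4* read at most 0.887 on every array and *Col1a1* read 0.409 to 0.898 against 1.72 (-1.49, limma adjusted p = 0.0722). Their part in the *Rgs5* and *Rgs4* values was not tested.

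The alpha subunits, on which RGS proteins act, had 4 calls higher and 2 lower among 13, beside 15.1% and 18.8% of all genes. *Gnai2*, the main Gi alpha subunit of lymphocytes, read 96.7 to 132 in LP cells and 79.7 in naive cells and was not called (0.45, limma adjusted p = 0.248). *Gnai3*, its close relative, was higher (116 to 151 against 39.5; 1.70, limma adjusted p = 0.0251). *Gnaq*, the target that *Rgs2* prefers, rose by 1.88 (limma adjusted p = 0.0193) and its relative *Gna11* fell by 1.63 (limma adjusted p = 0.0215), although *Gnaq* turned to -0.082 with the mean of its probe sets. *Gna13* rose by 1.43 (limma adjusted p = 0.0282). The calls on *Gnal* (2.09) and *Gnaz* (-2.48) concern signals of at most 1.65 on every array, and *Gnai1* (2.12) and *Gna15* (1.10) did not pass. With quantile normalization neither lower call was kept (limma adjusted p = 0.0634 for *Gna11* and 0.0811 for *Gnaz*), nor was that on *Gnal* (0.0577). The replicate term ended all 4 higher and both lower calls. *Gnai3*, *Gnaq*, *Gna13* and *Gnal* then had limma adjusted p of 0.057, 0.0511, 0.0659 and 0.0542, while *Gnai1* passed (0.0447). Of 14 beta and gamma subunits, 4 were higher and 4 lower. The widest of these, chosen after their values were seen, were *Gng2*, at 3.66 to 7.16 in LP cells against 65.5 (-3.69, limma adjusted p = 0.012), and *Gng4*, at 3.61 to 4.77 against 0.379 (3.41, limma adjusted p = 0.012).

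Receptors are also silenced by kinases and arrestins, which mark and cover their inner face, and here both arrestins were lower. *Arrb1* read 1.77 to 3.38 in LP cells against 11.6 (-2.30, limma adjusted p = 0.0186) and *Arrb2* 9.85 to 24.3 against 46.2 (-1.56, limma adjusted p = 0.0306). With quantile normalization *Arrb2* was not called (limma adjusted p = 0.0649), and neither was called with the replicate term or by the methods' 2-group test after adjustment. *Grk6*, a receptor kinase of lymphocytes, was higher on its main probe set (122 to 168 against 54.2; 1.36, limma adjusted p = 0.0327), but a probe set not of the shared types gave -0.30. The call on *Grk6* was also lost with the replicate term (limma adjusted p = 0.0667). *Grk4* (-1.40) and *Grk5* (1.14) did not pass. Among 7 modulators that act on G proteins outside the receptor, none was higher and 2 were lower, beside 15.1% and 18.8% of all genes. *Gpsm3*, which holds inactive Gi alpha subunits in leukocytes, fell from 66.9 to between 7.02 and 10.3 (-2.96, limma adjusted p = 0.0121), and *Pcp2*, its relative known from Purkinje cells, fell from 6.66 to 0.029 to 0.470 (-5.59, limma adjusted p = 0.0268). *Ric8b* (0.82) and *Ric8a* (-0.59) did not pass. Between CXCR6+ and CXCR6- cells no gene of these lists was called.

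**Figure D4:**
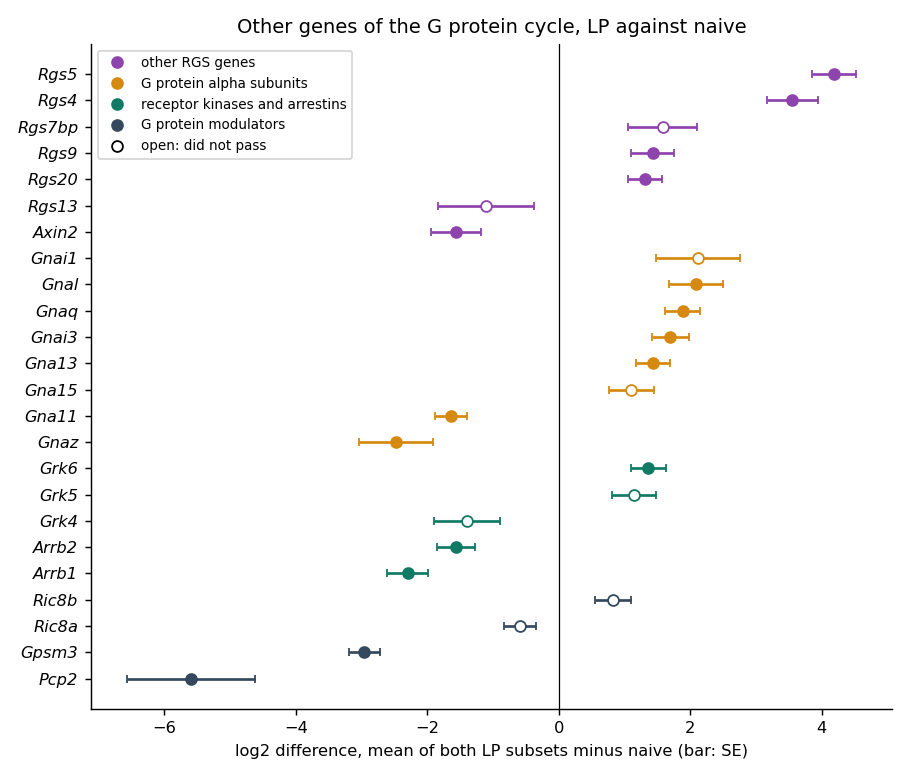
Difference between LP and naive cells for other RGS genes, G protein alpha subunits, receptor kinases and arrestins, and G protein modulators (log2 units; bars, SE; filled, limma adjusted p under 0.05; open, not called). The genes shown are those that passed and up to 2 more of each group, and calls lie on both sides of 0 except among the modulators, where both are lower.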

How the data were processed

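The deposited table holds intensity values of 5 arrays, which the authors made as linear signals with a median of 1 per array, by GeneSpring 11.5 according to the methods and by RMA according to the submitters' processing notes. How background was corrected and which filters were used is not stated there. With 5 arrays precision is low. The table lists 45101 probe sets, 34945 of them with 1 gene symbol, and the one with the highest mean signal stood for each of 18193 genes. Signals were log2 transformed, with a signal of 0.001 kept for zeros, of which there were 0. Groups came from the sample titles. A model of 3 group means was fitted with limma (3.58.1, R 4.3.3), and lmFit and eBayes gave two-sided tests, adjusted over all genes after Benjamini-Hochberg at a threshold of 0.05. Residual degrees of freedom were 2, all from LP arrays, and prior ones 1.678, so the single naive array takes its spread from the LP groups. A second fit used all probe sets with 1 symbol. The script was tested on simulated data. Replicates are numbered in the labels. Deviations of same-numbered LP arrays from their group means correlated at 0.192 over genes with a mean signal of at least 1. There are only 2 such pairs of arrays. With a fixed replicate term 3512 genes were called between LP and naive cells, and 0 with the numbers crossed. Whether the numbers mark pairs was not settled, and the main fit did not use them. Promoters are RefSeq windows of GRCm38.p6. No gene coordinates are given for the probe sets because the sources used here name no build.

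The members and gene lists were chosen with earlier results of these data known. Named genes were all 8 members, each gene of the 4 lists of other RGS genes, alpha subunits, kinases and arrestins, and modulators that passed a test, up to 2 further genes per list with the largest difference, and the 2 genes most similar to each member. Alternatives were averaging the probe sets of a gene, omission of the _s_at, _x_at and _a_at types, all probe sets in the fit, a filter at the 40th percentile, quantile normalization, log2 of signal plus 1, a floor of 1, robust fitting with a variance trend, a replicate term, omission of each LP array, and the methods' 2-group test.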

Additional observations from a re-analysis of the deposited data

How the results depend on the processing

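Of the RGS genes, 4 were called higher and 2 lower in LP cells than in naive cells, 2 and 2 in CXCR6+ cells alone, 3 and 2 in CXCR6- cells alone, and 5 and 4 of the probe sets. Between the subsets 0 were called under every alternative run, and there the sign of *Rgs2* and *Rgs3* turned with quantile normalization (-0.046 and -0.034) and that of *Rgs2* without CXCR6- replicate 2 (-0.14, the others left out giving up to 0.43). The cause of the changes below was not tested unless stated. With all probe sets of a gene averaged, which brings in dim probe sets, 1 gene was higher in LP cells and 1 in each subset alone, and *Rgs3* turned to -0.31 in LP, -0.19 in CXCR6+ and -0.44 in CXCR6- cells, *Gnaq* to -0.082, *Grk5* to -0.63, *Ric8b* to -0.27 and *Ric8a* to 0.41. Without the _s_at, _x_at and _a_at types, which removes *Rgs3*, *Rgs14*, *Rgs16* and *Rgs19* altogether, 2 were higher and 1 lower in LP cells and 1 lower in each subset, *Grk6* turned to -0.30 and *Ric8a* to 1.39. A filter at the 40th percentile, log2 of signal plus 1 and the variance trend each gave 4 lower in LP cells and 4 lower in CXCR6- cells. Each also gave 4 higher in CXCR6+ cells and 7 lower probe sets, and the floor of 1 gave 3 higher and 7 lower probe sets. Over all genes, calls lower in LP cells rose too under these 3 settings, from 3414 of 18193. They were 4421 of 10916 with the filter, 5086 with log2 of signal plus 1 and 4757 with the trend. With each LP array left out in turn, which leaves fewer arrays, 0 to 1 genes were higher and 0 to 2 lower in LP cells, and 0 were called in each subset alone and among the probe sets. The methods' 2-group test, unadjusted, gave 1 lower in CXCR6+ cells and 1 higher in CXCR6- cells, and after adjustment 0 in both.

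The replicate number as a block, a fixed term since a random one could not be fitted with 5 arrays, gave 3 genes higher and 2 lower in LP cells and 0 in each subset alone, and over all genes 1705 higher and 1807 lower against 2756 and 3414 without it. Probe sets far below the array median, among them those of *Rgs18* in LP cells, limit the folds given.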
